A study of Arabidopsis thaliana with 4 samples.

Results

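AT2G30810, AT4G32460 and AT4G15750 are Arabidopsis thaliana genes that were followed in RNA of inflorescences of apetala1 mutant and wild-type plants. AT2G30810 belongs to the GASA family, and AT4G32460 belongs to the DUF642 family of cell wall proteins. The gene table used here names these 2 genes and AT4G15750 by their locus alone. They were chosen by their ratios between the mutant and the wild type on the same arrays that are described here, so their values are a description and no test of them is given. The 3 genes are among the 5415 genes for which the array's annotation lists a probe of their own, and each of the 3 has 1 such probe. Each passed the filter of a value on at least 3 arrays, as did 5265 of the 5415 genes.

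The study hybridised total RNA of both kinds of inflorescence together on 4 two-colour long-oligonucleotide arrays, called sets 1 to 4. The mutant RNA was in channel 1 on sets 1 and 3 and in channel 2 on sets 2 and 4, and wild-type RNA was in the other channel. The labels give no allele, accession background, plant age or flower stage, and whether different plants went into different sets is not stated. The spread between sets may therefore be technical, and with 4 arrays the precision of every ratio is limited. The gene APETALA1 (AP1) encodes a transcription factor of the MADS-box class that specifies floral meristems and the outer floral organs, and flowers of apetala1 mutants lack normal sepals and petals.

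GASA proteins are small cysteine-rich peptides with a signal for secretion, named after a tomato transcript that rises after gibberellin treatment. Members of the family act in cell elongation, flowering and seed development. DUF642 proteins are plant proteins found in the cell wall, where some members interact with pectin methylesterases. Pectin methylesterases remove methyl groups from pectin and so change how stiff the wall is, and their activity is held back by proteinaceous inhibitors. AT4G15750 was carried in a list of invertase and pectin methylesterase inhibitors drawn up from general knowledge, a placement that the sources used here do not test.

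Every value below is a log2 ratio of the 2 channels of an array, as normalized by the authors, with the sign of sets 2 and 4 turned unless stated otherwise. A value of 1 is a 2-fold ratio. The labels name neither the dyes nor the channel in the numerator. Positive therefore means only the direction that sets 1 and 3 show as deposited, and which genotype had more of a transcript is unknown. In bulk inflorescences, fewer cells of a type and less RNA per cell cannot be told apart.

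AT2G30810, the GASA gene, had the highest mean of the 3. As deposited it read 3.24 and 2.03 on sets 1 and 3, and -2.90 and -1.83 on sets 2 and 4, so its sign followed the channel order on all 4 arrays. After turning, the values of sets 1 to 4 were 3.24, 2.90, 2.03 and 1.83, which correspond to ratios of 9.48-fold, 7.45-fold, 4.09-fold and 3.56-fold. Sets 1 and 2 were high and sets 3 and 4 low, and each of these pairs holds both channel orders. The bulk of all features was also wider on sets 1 and 2. Its scaled median absolute deviation was 0.44 and 0.45 there, against 0.30 and 0.31 on sets 3 and 4. The part of this in the pattern of AT2G30810 was not tested. The mean was 2.50 ± 0.68 (SD, n = 4), a 5.66-fold ratio. Taken by channel order, sets 1 and 3 averaged 2.64 and sets 2 and 4 averaged 2.36, a gap of 0.27 that is smaller than the SD over the arrays.

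AT4G15750 had a mean almost as high and a wider spread. Its deposited values were 2.17 and 1.46 on sets 1 and 3, and -3.55 and -2.03 on sets 2 and 4. Turned, sets 1 to 4 read 2.17, 3.55, 1.46 and 2.03, or 4.49-fold, 11.7-fold, 2.75-fold and 4.07-fold. Set 2 stood highest, and it was the highest of all 12 values of the 3 genes. The mean was 2.30 ± 0.89 (SD, n = 4), a 4.92-fold ratio. Without set 2 the mean was 1.88. The channel orders differed more here than for the other 2 genes, with 1.81 on sets 1 and 3 against 2.79 on sets 2 and 4, a gap of 0.98 that exceeds the SD over the arrays.

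AT4G32460, the DUF642 gene, had a smaller ratio that varied little. It read 1.30, -1.26, 1.46 and -0.99 on sets 1 to 4 as deposited, and 1.30, 1.26, 1.46 and 0.99 once turned. The corresponding ratios were 2.46-fold, 2.40-fold, 2.74-fold and 1.98-fold, so set 4 alone fell just short of 2-fold. Its mean was 1.25 ± 0.20 (SD, n = 4), a 2.38-fold ratio. Sets 1 and 3 averaged 1.38 and sets 2 and 4 averaged 1.12, and this gap of 0.25 also exceeds the SD over the arrays.

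**Figure D1:**
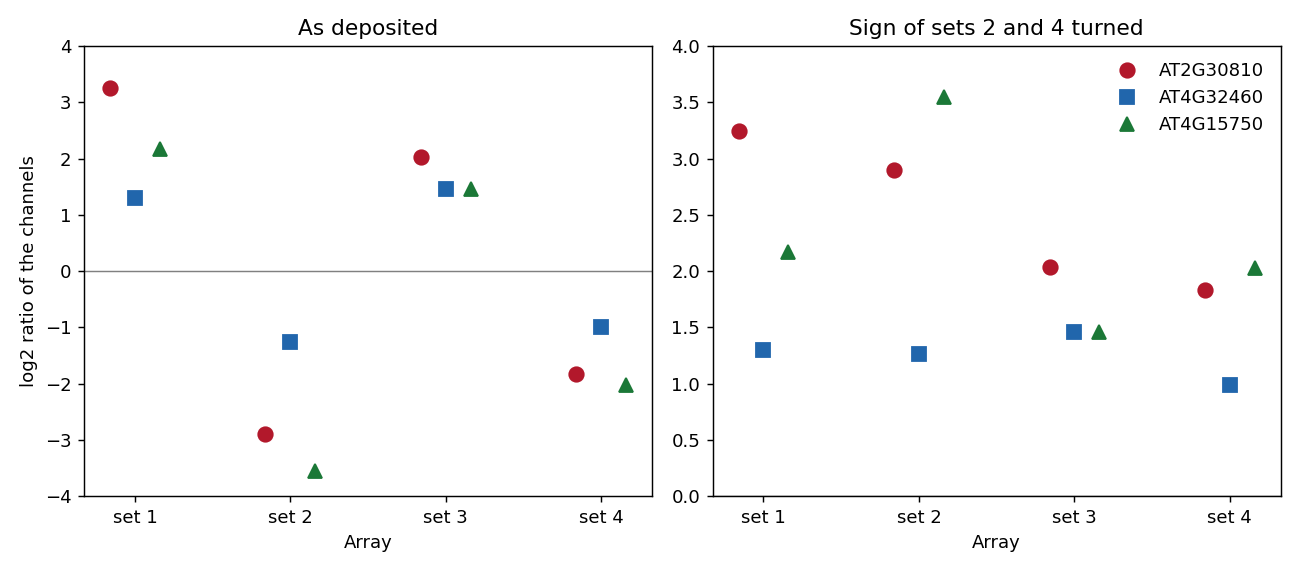
Log2 ratio of the channels (vertical axis) of the 3 genes on each array (horizontal axis), as deposited on the left and with the sign of sets 2 and 4 turned on the right; each point is 1 array value. Left, all values are above 0 on sets 1 and 3 and below 0 on sets 2 and 4; right, the 12 values run from 0.99 to 3.55, with AT4G32460 the lowest or level with the lowest on every array.

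The order of the 3 mean ratios was AT2G30810, AT4G15750 and AT4G32460. The first 2 did not differ beyond their spread. AT2G30810 exceeded AT4G15750 on 2 of 4 arrays, namely by 1.08 on set 1 and 0.58 on set 3, and lay below it by 0.65 on set 2 and 0.20 on set 4. The sign of that difference thus went with the channel order, and the mean difference was 0.20 ± 0.77 (SD, n = 4). AT2G30810 exceeded AT4G32460 on all 4 arrays, by 1.25 ± 0.65 on average, and the values of these genes did not overlap, since the lowest of AT2G30810 was 1.83 and the highest of AT4G32460 was 1.46. AT4G15750 exceeded AT4G32460 by 1.05 ± 0.94, but on set 3 both read 1.46.

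A mean of the deposited values with no array turned shows what part of a ratio stays with the channel and not with the RNA. This part was 0.14 for AT2G30810, 0.13 for AT4G32460 and -0.49 for AT4G15750. Across the 24398 features with a value on 4 arrays, a feature being a gene or a probe without a gene of its own, the same quantity had a median of 0.01, and its 5th and 95th percentiles were -0.27 and 0.42. The value of AT4G15750 thus lay below the 5th percentile, while those of the other 2 genes lay inside this range. The SD of AT4G15750 over the turned arrays, 0.89, exceeded that of 93.3% of the features. The part of this spread in its channel value was not tested. The channel part was smaller in size than the turned mean for all 3 genes. That had to be so, since all 12 turned values were positive and the genes were chosen by these values, so nothing is read from it.

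The table of all features gives the scale of these ratios. The turned means of the 25415 features tested had a median of -0.02, with 5th and 95th percentiles of -0.52 and 0.63 and a 99th percentile of 1.19. AT2G30810 ranked 10 from the top of all features and 2 among the 5265 genes. AT4G15750 ranked 19 and 5, and AT4G32460 ranked 208 and 41. On single arrays AT2G30810 ranked between 16 on set 1 and 413 on set 3, although its ratio on set 3 was higher than on set 4, where it ranked 103. AT4G15750 ranked 4 on set 2 and 692 on set 3. AT4G32460 kept a narrower band, from 452 on set 1 to 728 on set 4, where 1.78% and 2.88% of the features lay higher. AT2G30810 and AT4G15750 thus had their poorest rank on set 3, whereas AT4G32460 had about the same rank on sets 3 and 4, at 693 and 728.

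The spreads of the 3 genes were as different as their means. The median SD over the arrays was 0.29 for all features. The SD of AT4G32460, 0.20, was below that value, and 24.9% of the features had a smaller one. The SDs of AT2G30810 and AT4G15750 exceeded those of 88.9% and 93.3% of the features. Both genes were at least 2-fold to the positive side on all 4 arrays. They are among the 15 such genes of the 5051 with a value on every array, whereas 1 gene was so on the negative side. Over all 24398 features with a value on 4 arrays, 73 were so on the positive side and 14 on the negative.

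**Figure D2:**
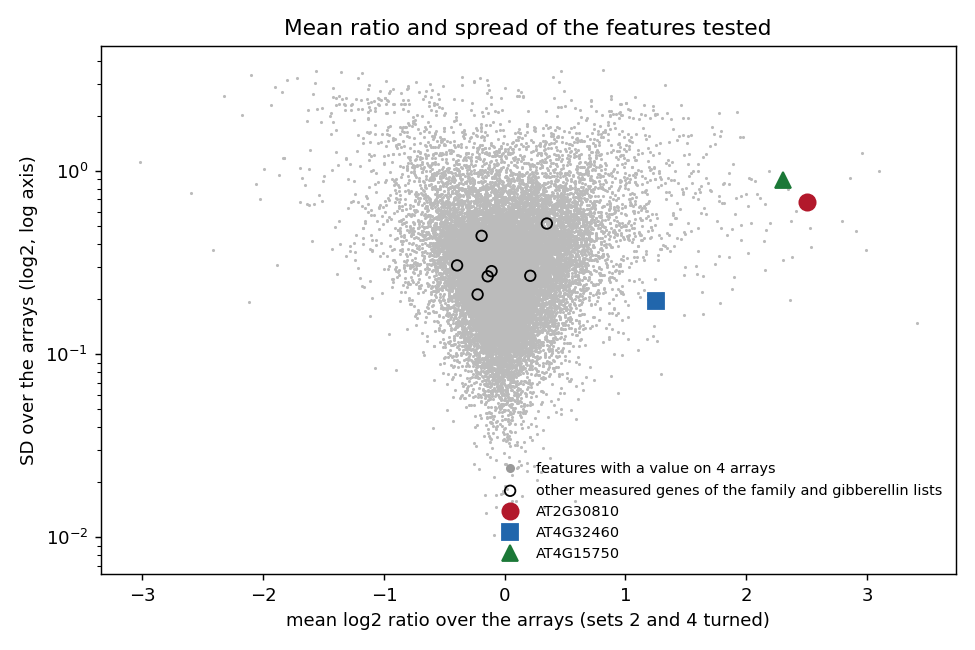
Mean log2 ratio over the arrays (horizontal axis) against the SD over the arrays (vertical log axis) for each feature with a value on 4 arrays (grey), the 7 other measured genes of the family and gibberellin lists (open circles) and the 3 genes (coloured). AT4G32460 sits at 1.25 with an SD of 0.20, and AT4G15750 and AT2G30810 sit at 2.30 and 2.50 with SDs of 0.89 and 0.68; the open circles lie between -0.39 and 0.35.

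In limma, fitted to all features at once with Benjamini-Hochberg adjustment, 56 of 25415 features had an adjusted p under 0.05, which is 0.220% of them. Of the 3 genes, 2 were among those 56, AT2G30810 and AT4G32460. The genes were picked from these same values, so nothing is read from that count. The 56 calls rest on turning sets 2 and 4 and on leaving out values at the limits of the deposited scale. None of the 12 values of the 3 genes was at a limit (0 of 12), so leaving limit values out did not touch their ratios.

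The other members of the 2 families were scarcely covered by probes of their own, and those that were covered did not pass the test. With 0.220% of all features passing, so few genes would be likely to give no pass. Of the 14 other GASA genes listed, 2 were measured, 3 were listed only on probes shared with other loci and 9 had no probe listed in the annotation used here. AT2G14900 read 0.43, 0.25, -0.17 and 0.34 on sets 1 to 4, with a mean of 0.21 ± 0.27 (SD, n = 4; limma adjusted p = 0.505). AT1G22690 read 0.00, -0.28, -0.13 and -0.49, with a mean of -0.22 ± 0.21 (limma adjusted p = 0.446). Both genes were placed in the GASA list from general knowledge, and every value of either was far below the lowest value of AT2G30810. AT2G30810 was chosen by its values, so nothing about the family is read from that gap.

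Among the 9 other DUF642 genes, 2 were measured by probes of their own. AT3G08030 read -0.81, 0.17, -0.22 and 0.09, with a mean of -0.19 ± 0.44 (SD, n = 4; limma adjusted p = 0.653). AT5G14150 read -0.37, -0.03, 0.18 and -0.35, with a mean of -0.14 ± 0.27 (limma adjusted p = 0.658). The arrays of both lay on both sides of 0, and none of their values reached the 0.99 that was the lowest of AT4G32460. That gene too was chosen by its values.

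The pectin-modifying enzymes and their inhibitors had 1 measured gene each beside AT4G15750. AT1G23200, of the list of 17 pectin methylesterases, read 0.85, 0.33, 0.57 and -0.36, with a mean of 0.35 ± 0.52 (SD, n = 4; limma adjusted p = 0.466). AT5G20740, of the 10 other listed inhibitors, read -0.43, -0.75, -0.39 and -0.01. It was below 0 on all 4 arrays, opposite in sign to AT4G15750, with a mean of -0.39 ± 0.31 (limma adjusted p = 0.288).

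Gibberellin synthesis and signalling genes were looked at because GASA genes carry the hormone in their family name. Of 21 listed genes of gibberellin synthesis and turnover, 0 had a probe of their own. Of 11 listed signalling genes, 1 did. This was GID1B, which encodes a gibberellin receptor, with values of -0.06, 0.24, -0.17 and -0.45 and a mean of -0.11 ± 0.28 (SD, n = 4; limma adjusted p = 0.746). Over the 4 family and enzyme lists and the 2 gibberellin lists, 7 other genes were measured and 0 passed in limma in either direction, against 0.220% of all features. At an unadjusted p under 0.05 there was 1, AT5G20740, against 16.3% of all features. The median of the 7 means was -0.14, and that of all features was -0.02.

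**Figure D3:**
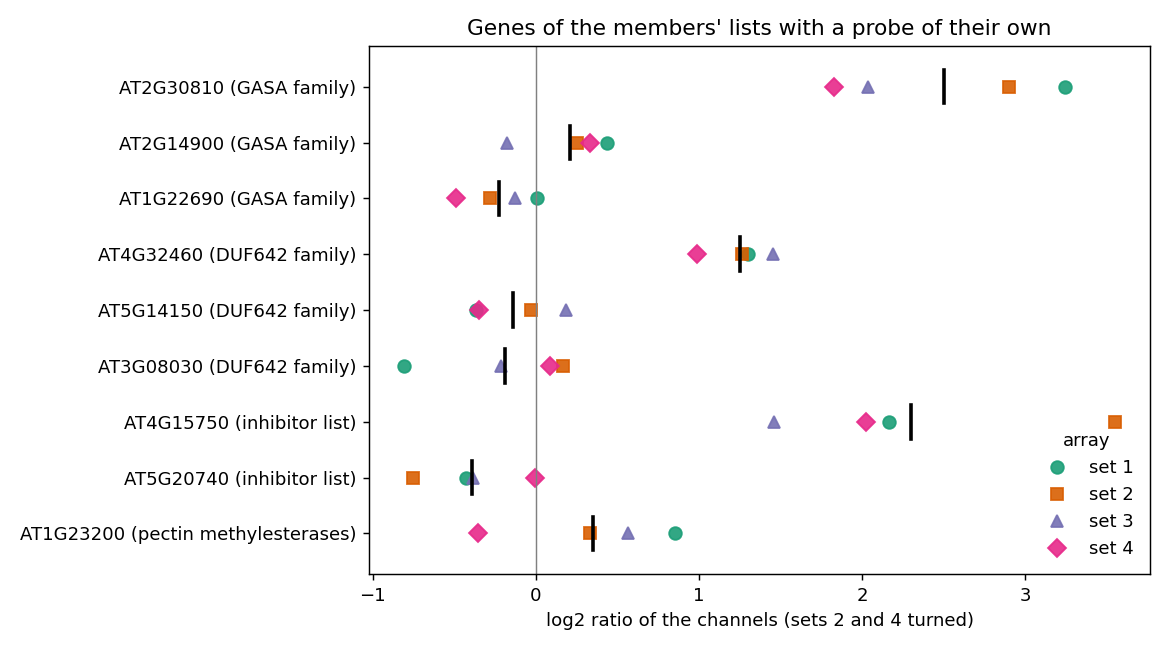
Log2 ratio on each array (horizontal axis, sets 2 and 4 turned; symbols mark the array, black bars the mean of 4 arrays) for the 9 genes of the GASA, DUF642, inhibitor and pectin methylesterase lists that have a probe of their own. The values of AT2G30810, AT4G32460 and AT4G15750 all lie at 0.99 or above, and those of the other 6 genes lie between -0.81 and 0.85.

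Probes that the annotation assigns to several loci cannot be given to 1 gene, and they entered no gene's mean. They were examined after the values had been seen. Of those whose loci all belong to 1 of the family and enzyme lists there were 10, several of which list the same loci. In limma 0 of the 10 passed after adjustment, against 0.220% of all features, and 6 had an unadjusted p under 0.05, against 16.3% of all features. Being few, picked after the fact and not separate in their loci, they are given as a description. A probe for AT1G10588, AT5G59845 and AT2G39540, all of the GASA list, read 1.20, 1.07, 0.42 and 0.19, with a mean of 0.72 ± 0.49 (SD, n = 4; limma adjusted p = 0.208). It was positive on all 4 arrays. A second GASA probe, for AT5G59845 and AT2G14900, had a mean of -0.21 ± 0.43 (limma adjusted p = 0.613) with arrays on both sides of 0.

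The DUF642 family had 4 such probes, and they disagreed. The probe for AT3G08030, AT2G41810 and AT2G41800 read -0.63, -0.96, -0.65 and -0.67, with a mean of -0.73 ± 0.16 (SD, n = 4; limma adjusted p = 0.0920). Its sign was negative on all 4 arrays, opposite to AT4G32460. A probe for AT2G41810 and AT2G41800 alone was positive on the 3 arrays with a value, at 0.58, 0.53 and 0.77 on sets 1, 2 and 4, with a mean of 0.63 ± 0.13 (n = 3; limma adjusted p = 0.174), and set 3 was at the upper limit. The pair of probes for AT1G29980 and AT2G34510 had means of -0.62 ± 0.52 (limma adjusted p = 0.257) and -0.00 ± 0.37 (0.992). Probes with loci in common thus gave means of opposite sign or of unequal size, which limits what any 1 probe says of a locus.

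AT4G15750 is the 1 gene of the 3 that such probes also list. There were 2 of them, each assigned to AT4G15750 together with AT4G00872, AT1G56100 and AT3G12880. One read 0.42, 0.77, -0.02 and -0.21 on sets 1 to 4, with a mean of 0.24 ± 0.44 (SD, n = 4). The other read 0.07, 0.06 and -0.74 on sets 1, 2 and 4, with a mean of -0.20 ± 0.47 (n = 3), and set 3 was at the upper limit as deposited. Neither showed the ratio of the gene's own probe, whose lowest value was 1.46. The ratio of AT4G15750 rests on its own probe alone, and no second probe is listed for AT2G30810 or AT4G32460. The gene table lists 4 RefSeq transcripts for AT4G32460 and 1 for each of the other 2 genes, and the ratios do not tell the transcripts apart.

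Pectin methylesterases were present on shared probes as well, among them VGD1, VGDH1 and PPME1, which are known from pollen. The 4 probes whose loci all belong to the pectin methylesterase list were assigned to pairs among VGD1, VGDH1, PPME1 and AT5G07410. Their means ran from 0.19 to 0.45 with a median of 0.43. All 4 means were positive. Probes that also list a locus outside this list had means on both sides of 0. They ran from -0.46 (AT1G02810 and AT4G02330) to 0.66 (AT3G59010 and AT2G43050). Some of them were thus positive too, but the positive sign was not shared by every probe that lists a gene of this list. In limma 0 of the 4 passed after adjustment, against 0.220% of all features, and 2 had an unadjusted p under 0.05, against 16.3%. Each of these probes lists both loci of a pair, so the loci cannot be told apart.

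The nearest measured genes on either side of the 3 loci had mean ratios between -0.39 and 0.20. The nearest measured gene before AT4G15750 in the gene table was its direct neighbour AT4G15740, with a mean of 0.20 ± 0.28 (SD, n = 4; limma adjusted p = 0.544). After it, AT4G15770 had -0.23 ± 0.21 (limma adjusted p = 0.433). For AT2G30810 the nearest measured genes were AT2G30730, at 0.20 ± 0.33 (limma adjusted p = 0.573), and SWAP70, at -0.15 ± 0.23 (0.614), with 8 and 6 genes between. For AT4G32460 they were AT4G32430, at -0.39 ± 0.30 (limma adjusted p = 0.292), and AT4G32560, at -0.09 ± 0.16 (0.754), with 3 and 11 genes between. Of these 6 neighbours, 0 passed in limma after adjustment, against 0.220% of all features, a count that so small a set would give at the background share. At an unadjusted p under 0.05 there was 1, AT4G32430, against 16.3% of all features.

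Likeness was measured as the Euclidean distance between the 4 array values of a gene and those of each of the 5050 other genes with a value on all 4 arrays. This is a description over 4 arrays that all genes share. The gene nearest to AT2G30810 was AT5G47350, at a distance of 0.82 on the log2 scale and with values of 2.51, 3.23, 1.93 and 1.97. AT1G57980 followed at 1.20 and AT5G16410 at 1.22. AT4G15750 came next, in place 4, at 1.40. AT5G47350 was also nearest to AT4G15750, at 0.67, ahead of AT2G30810 at 1.40 and AT1G57980 at 1.61. Both genes therefore had AT5G47350 as their nearest gene, and it had its highest value on set 2, as AT4G15750 did.

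AT4G32460 lay in another range. Its nearest genes were AT5G58570 at 0.31, AT4G28085 at 0.39 and AT5G37730 at 0.48, with mean ratios of 1.30 ± 0.08, 1.19 ± 0.21 and 1.11 ± 0.11 (SD, n = 4). It stood in place 24 for likeness to AT2G30810 and also in place 24 for likeness to AT4G15750, at distances of 2.74 and 2.66. Seen from AT4G32460, however, AT2G30810 stood in place 2954 and AT4G15750 in place 2597 of the 5050 genes. The place thus depended on the gene from which it was counted.

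**Figure D4:**
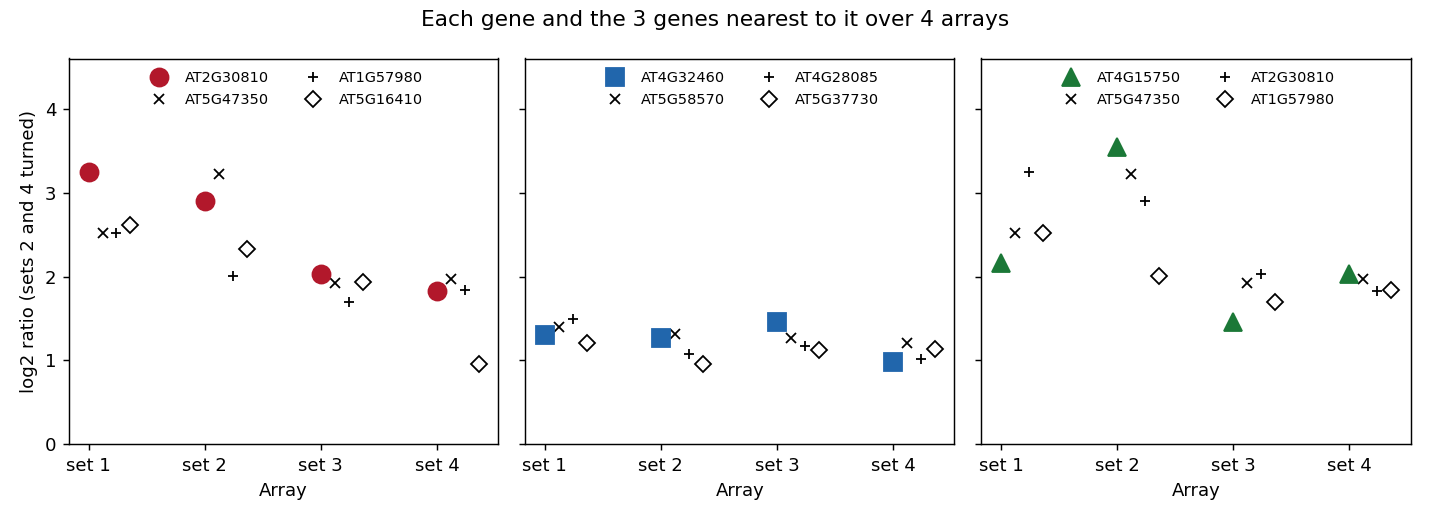
Log2 ratio on each array (sets 2 and 4 turned) of each of the 3 genes (coloured) and of the 3 genes at the smallest Euclidean distance from it (black symbols, shifted sideways for legibility). The nearest distances are 0.82 for AT2G30810, 0.31 for AT4G32460 and 0.67 for AT4G15750, and AT5G47350 appears with both AT2G30810 and AT4G15750.

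The tissue could not be checked against its defining genes. Of 10 floral MADS-box genes, AP1 among them, 0 had a probe of their own, so neither the mutated gene nor the genes of petals and stamens served as a check of the labels. Of 12 genes that mark the stem cells, ovules, carpels and tapetum, 5 were measured, 2 with a positive and 3 with a negative mean. The lowest mean was -0.71 ± 0.88 (SD, n = 4) for SHT, a tapetal acyltransferase. The highest was 0.17 ± 0.50 for CLV3, the stem cell signal, which read 0.91 on set 3. SHT and CLV3 each had arrays on both sides of 0. In limma 0 of these 5 passed after adjustment, against 0.220% of all features, and 0 had an unadjusted p under 0.05, against 16.3%. Their median was -0.18, and that of all features was -0.02. With so few genes these counts say little. The part of differing tissue amounts in the ratios of the 3 genes was not tested.

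The ratios of the 3 genes depended on the orientation of the arrays and moved less under the other settings. With sets 2 and 4 turned, the mean stayed between 2.25 and 2.73 for AT2G30810, between 1.18 and 1.34 for AT4G32460 and between 1.88 and 2.58 for AT4G15750 over 13 alternatives, including centring, quantile normalization, scaling, kept limit values and leaving out each array. Each of these ranges was set by leaving out 1 array. Keeping limit values, a term for channel order, robust eBayes, the filter on missing values and single probes could not move these means. The settings able to move them were centring, quantile normalization, scaling and leaving out each array. With no array turned, the means were 0.14, 0.13 and -0.49, the last with its sign reversed, and the SDs over the arrays rose to 2.96, 1.45 and 2.74. Turning followed the channel order of the labels, and it was chosen after the values had been seen.

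**Figure D5:**
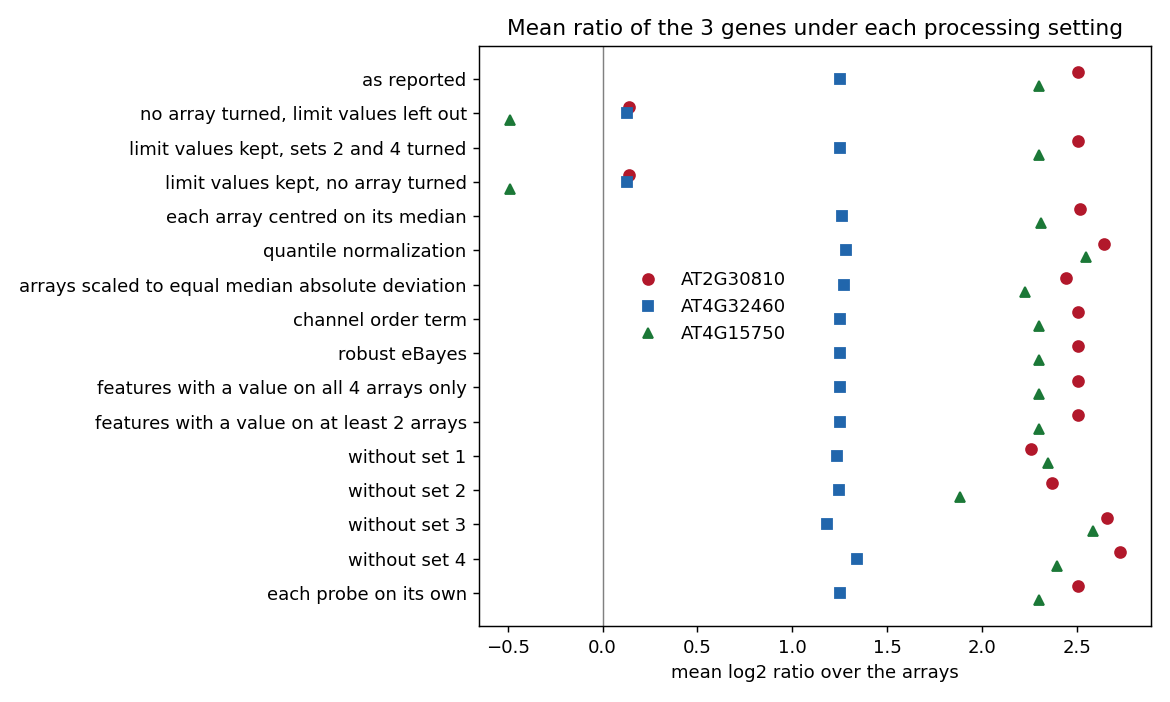
Mean log2 ratio over the arrays (horizontal axis) of the 3 genes under the reported processing and each of 15 alternatives (vertical axis). All settings with sets 2 and 4 turned keep AT4G32460 near 1.25 and the other 2 genes between 1.88 and 2.73; the settings with no array turned put all 3 between -0.49 and 0.14.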

How the data were processed

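The authors deposited a log2 ratio of both channels for every spot of an array, normalized by a published method per the labels. The labels state neither its steps nor the software or dyes used. The base follows from the values, which stop at plus and minus 6.64, the log2 of 100. The deposited columns had medians of -0.00, 0.06, 0.04 and 0.03 over the probes of sets 1 to 4, and they were not centred further. The scale and centring of the columns are thus known, and the direction is not. Signal over background and depth cannot be read from ratios.

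The 4 arrays formed 1 group, with replicate numbers from the set numbers in the labels. Of 26933 rows, 26474 were probes. Empty spots and control rows were left out. The 2765 probe values at a limit were treated as not measured, since a limit is only a bound, and sets 2 and 4 were turned. Probes were named through the platform annotation, in which 5784 had 1 gene symbol, 7497 several and 13193 none listed; of the 5784, 5756 could be matched to loci of the TAIR10.1 gene table, which served for names and neighbours only. Probes of 1 gene were averaged.

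Features measured on 3 or 4 arrays were tested two-sided against 0 in limma 3.58.1 under R 4.3.3 (lmFit, then eBayes), with Benjamini-Hochberg adjustment over all 25415. The fit was tested on simulated data. The genes and the lists were chosen with earlier results of these data known. Named are the 3 genes, every measured gene of the family, enzyme and gibberellin lists, for each of the 3 the 3 nearest genes by distance and the nearest measured gene on either side; the tissue markers and shared probes named besides were chosen after their values were seen. A planned comparison of protein relatives was not run, as protein sequences were not used here. Alternatives were the orientation, the limit values, centring, quantile normalization, scaling, a term for channel order, robust eBayes, the filter on missing values, single probes and leaving out each array.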

Additional observations from a re-analysis of the deposited data

Results flagged for a closer look

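Among probes that list several loci and enter no gene's ratio, 2 had a value at the upper limit of the deposited scale. The probe listed for AT4G15750, AT4G00872, AT1G56100 and AT3G12880 with the lower mean of its pair read 6.64 on set 3, against 0.07, -0.06 and 0.74 as deposited on sets 1, 2 and 4. The probe listed for the DUF642 genes AT2G41810 and AT2G41800 also read 6.64 on set 3, against 0.58, -0.53 and -0.77. On set 3, 58.3% of the empty spots, which carry no probe, were at that limit, as were 3.58% of the probes. The part of spots near background in these 2 values was not tested. Dixon's ratio was computed for 27 genes, the 3 genes described here included, to look for an array far from the rest, and it pointed to 0 of them, where chance picks out about 1 in 20.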

How the results depend on the processing

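With no array turned, and the same with limit values kept, the mean ratios were 0.14 for AT2G30810, 0.13 for AT4G32460 and -0.49 for AT4G15750. Leaving out 1 array gave 2.25 to 2.73, 1.18 to 1.34 and 1.88 to 2.58. The count of 56 called features moved to 0 with no array turned, 1 with limit values kept and arrays turned, 152 with no array turned and limit values kept, 18 with quantile normalization, 19 with arrays scaled to equal spread, 1 with the channel order term, 140 where a value on all 4 arrays was required, and 109 under robust eBayes; it was 0 to 38 without 1 array, where all 3 arrays left had to have a value (0, 1, 30 and 38 without sets 1, 2, 3 and 4). The cause was not tested, though a fit that leaves out 1 array or adds the term has fewer residual degrees of freedom. Centring left it at 56 (51 positive and 5 negative, against 50 and 6), as did testing each probe alone, and asking for values on 2 arrays gave 45. The number of list genes called was 0 under all 15 alternatives run, against 0.220% of all features in the reported fit. So few measured genes would be likely to give 0 at such shares, so nothing is read from this count.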
